A study of Mus musculus with 6 samples.

Results

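Cystatin C, encoded by Cst3, and a set of cathepsins were followed across 6 bulk RNA sequencing libraries of mouse retinal ganglion cells, which carry visual signals from the eye to the brain. The set was Cst3 with Ctsa, Ctsb, Ctsd, Ctsf, Ctsh, Ctsl, Ctss and Ctsz, named one by one because cystatin C can inhibit them or because they act beside it in lysosomes. Of these 9 genes, 8 were matched by symbol among the 22413 genes of the count table, and Ctsf was not analysed here. The set was chosen by values measured here, the counts of the knockout and control libraries, raw and scaled to the library total, Cst3 in particular for its difference between them. Differences between genotypes are therefore given as descriptions and carry no test of their own.

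The donors of all 6 libraries were adult mice homozygous for a floxed Tgfbr1, which encodes 1 of the receptors through which TGF-beta signals. Libraries 1 to 3 of the genotype Tgfbr1flx/flx;Vglut2Cre/+, here the knockout libraries, carried Cre under the gene for the vesicular glutamate transporter Vglut2 (Slc17a6), which is active in many glutamatergic neurons and not in ganglion cells alone. Libraries 1 to 3 of the genotype Tgfbr1flx/flx;Vglut2+/+ carried no Cre and are the controls, so the floxed alleles are common to both groups. Whether a sample was 1 animal or a pool, and how the cells were isolated, is not stated in the labels, so an error over 3 libraries is the spread of these samples and may be technical.

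Cystatin C is a small secreted protein that binds tightly in the active site of papain-family cysteine proteases and blocks them. Its targets include cathepsins B, H, L and S, proteases that work mainly in lysosomes and can also be secreted. Cathepsin D is an aspartic protease and cathepsin A a serine carboxypeptidase, so both lie outside the reach of cystatin C although they share the lysosome with its targets. In the retina cystatin C is known from several cell types, and cathepsin S and cathepsin Z are well known from microglia and macrophages.

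Libraries held 7486359 to 21126291 gene counts, and 4258 to 7209 genes reached 10 counts or more, fewer in every control than in every knockout. Of 15 ganglion cell markers, 9, 12 and 10 reached 10 counts across knockouts 1 to 3 against 10, 9 and 6 across controls 1 to 3. Control 3 stood apart: its ganglion cell markers summed to 894 CPM, a library's counts scaled to its total, against 3136 to 4924 CPM elsewhere, it had 0 counts of Slc17a6, and its 11 endothelial markers summed to 6326 CPM, against 35.9 to 760 CPM elsewhere. The defining factor Pou4f2 had 0 counts in 5 libraries and 1 count in knockout 1. Tgfbr1 itself had 46, 0 and 793 counts across the knockouts against 1, 0 and 1538 across the controls; the table gives 1 count for the gene as a whole, floxed exon or not, so it does not check the genotype. In bulk RNA, fewer cells of a type and less RNA per cell cannot be told apart.

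Short stretches of the members' promoters are printed to show where 2 well-known promoter words stand in Cst3 and in the lysosomal proteases beside it. The palindrome CACGTG is the core of the element bound by TFEB and its relatives, the transcription factors of lysosomal genes. It was searched in the 250 bases upstream of the start annotated by RefSeq on GRCm38.p6, where it occurs in 6.02% of 32851 promoters. No such word stood in the Cst3, Ctss or Ctsz window, while Ctsd held 2, where 0.429% of promoters hold at least 2. The Ctsd window was 67.2% G or C and held CG 27 times, against medians of 52.4% and 6 over all promoters. Ctsl and the second of 2 annotated Ctsa starts held 1 CACGTG each, both in windows inside the longest annotated gene. Ctsf, whose expression was not analysed here, held 1 as well; Ctsb and Ctsh were not searched. The stretches below run 5′ to 3′ on the gene's strand with the word in capitals:
Ctsd, chr7:142388055-142388077, minus strand: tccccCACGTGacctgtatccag
Ctsd, chr7:142387908-142387937, minus strand: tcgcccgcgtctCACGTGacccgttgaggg
Ctsl, chr13:64370739-64370768, minus strand: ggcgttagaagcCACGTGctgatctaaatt
Ctsa, chr2:164833749-164833772, plus strand: tgagcaaactgtCACGTGatgcag
The second Ctsd copy begins 98 bases upstream of the RefSeq start and the Ctsa copy 12 bases upstream. That Ctsd copy lies inside the longer Ctsd gene of the GENCODE M21 annotation, which reaches to base 142388038. The Cst3 window held 1 GC box, GGGCGG searched on both strands, a word found in 32.7% of promoters and also in the windows of Ctsd, Ctsf, Ctss and Ctsz:
Cst3, chr2:148875562-148875591, minus strand: gaagcagagggaGGGCGGggccgttcggaa
It begins 67 bases upstream of the RefSeq Cst3 start. The stretch lies inside the longer Cst3 gene of GENCODE M21, which reaches to base 148875692. These matches are letters in a window and not binding sites.

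Levels of different genes were compared as FPKM, the deposited values scaled to gene length and library total. Cst3 had the highest level of the 8 genes in every library, with 2586, 2789 and 1451 FPKM across knockouts 1 to 3 against 786, 639 and 994 FPKM across controls 1 to 3. By FPKM it ranked 33rd, 31st and 70th among all genes of the knockout libraries and 163rd, 187th and 87th across the controls. Its lowest level lay above the highest level of any cathepsin of the set, the 283 FPKM of Ctsb in control 2. This order rests on the lengths in the deposited FPKM, 796 bases for Cst3 against 4743 for Ctsb and 3576 for Ctsl. In CPM, with no length, Cst3 stayed above both in the knockouts but not in the controls. Ctsb exceeded it in controls 1 and 2 (1000 and 1343 against 626 and 509 CPM). Ctsl exceeded it in controls 2 and 3 (524 and 891 against 509 and 791 CPM).

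The cathepsins fell into well measured and sparse genes. Over all 6 libraries the mean level was 195 FPKM for Ctsb, 173 for Ctsl, 73.9 for Ctsd, 41.5 for Ctsh, 10.6 for Ctsa, 3.64 for Ctsz and 2.45 for Ctss. Ctsb and Ctsl overlapped in level, and so did each other pair of neighbours in that order. Ctsb and Ctsl reached 10 counts in all 6 libraries, Ctsd and Ctsa in 5, Ctsh in 3, Ctss in 2 and Ctsz in 1. The number of members at 10 counts or more was 7, 6 and 6 across the knockouts against 4, 5 and 6 across the controls. Over all genes it was 6738, 7209 and 5790 against 4258, 4463 and 4863.

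**Figure D1:**
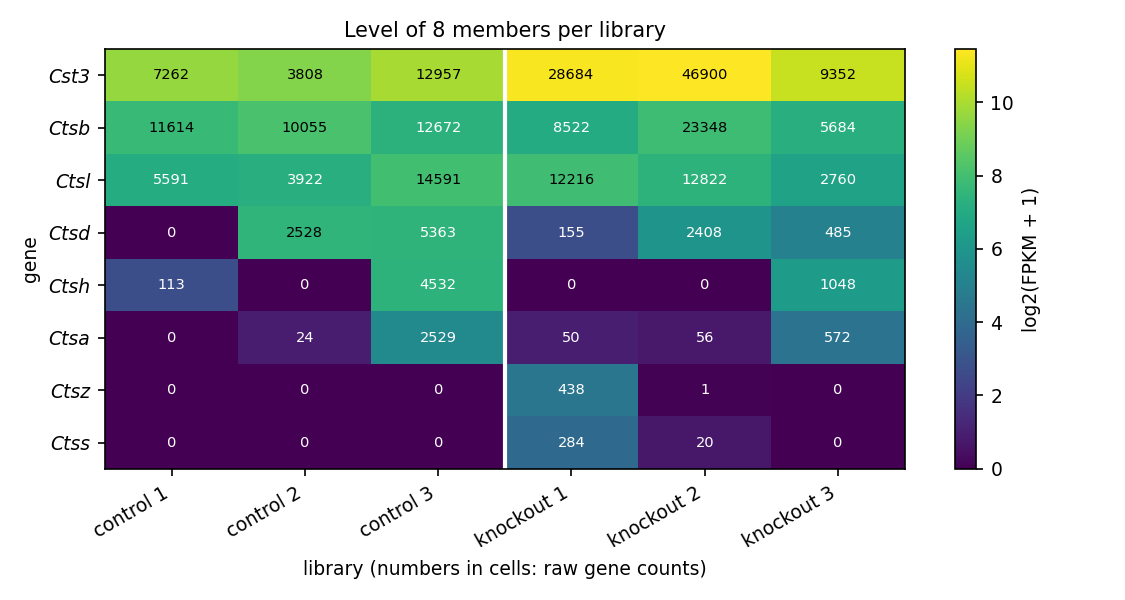
Level of the 8 measured genes (rows) in each library (columns), as colour on a log2(FPKM + 1) scale, with the raw gene counts written in each cell. Cst3, Ctsb and Ctsl are present in all 6 libraries, while Ctsz and Ctss are near 0 outside knockout 1.

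Cst3 (RefSeq GRCm38.p6, chromosome 2, 148871722 to 148875512, minus strand) was higher in each knockout library than in each control library. It had 28684, 46900 and 9352 counts in the knockouts, or 2058, 2220.0 and 1155 CPM, and 7262, 3808 and 12957 counts across the controls, or 626, 509 and 791 CPM. Knockouts 1 and 2 stood close together at the top, and knockout 3, the shallowest of its group, lay 1.46 times above control 3, the highest control. The means were 1811 ± 574 CPM for the knockout against 642 ± 142 CPM for the control (SD, n = 3), a ratio of 2.82. The fitted log2 fold change was 1.62 ± 0.51 (SE), where the median of all tested genes was 0.14. With the size factors of DESeq2 in place of TMM scaling these values were 1.31 and -0.13. The SE, which for edgeR was derived from the test statistic, depended on the method: Cst3 was at 1.29 ± 2.06 (SE) in DESeq2 itself. In edgeR with no filter on low counts it was at 1.56 ± 1.55 (SE).

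Cst3 did not pass edgeR's quasi-likelihood test over all genes. The test called 0 of 5727 genes at a Benjamini-Hochberg adjusted p under 0.05 (0.0%), with 281 genes at an unadjusted p under 0.05, and 0 of the 6 members that passed the filter on low counts. DESeq2 called 840 of the 7082 genes to which it gave an adjusted p (11.9%) and none of the 5 members among them, and limma on log2(FPKM + 1) called 0 genes. Of the 6 tested members, Cst3 alone had every knockout library above every control library, a pattern that 10.4% of all tested genes share, and none had the reverse, shared by 2.3%. Cst3 was picked for this pattern, and nothing is read from its count.

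The spread of the well measured members within a genotype is given as a description, since Cst3 was chosen from these same values, and libraries that do not overlap between genotypes favour a small spread within them. Among 1168 genes with at least 10 counts in all 6 libraries, the standard deviation within groups of log2(CPM + 1) was 0.43 for Cst3 and 1.12 at the median, and 6.25% of these genes had a smaller one. Ctsb was as even at 0.42, with 5.99% of genes below it, and Ctsl at 0.59, with 15.4% below it.

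**Figure D2:**
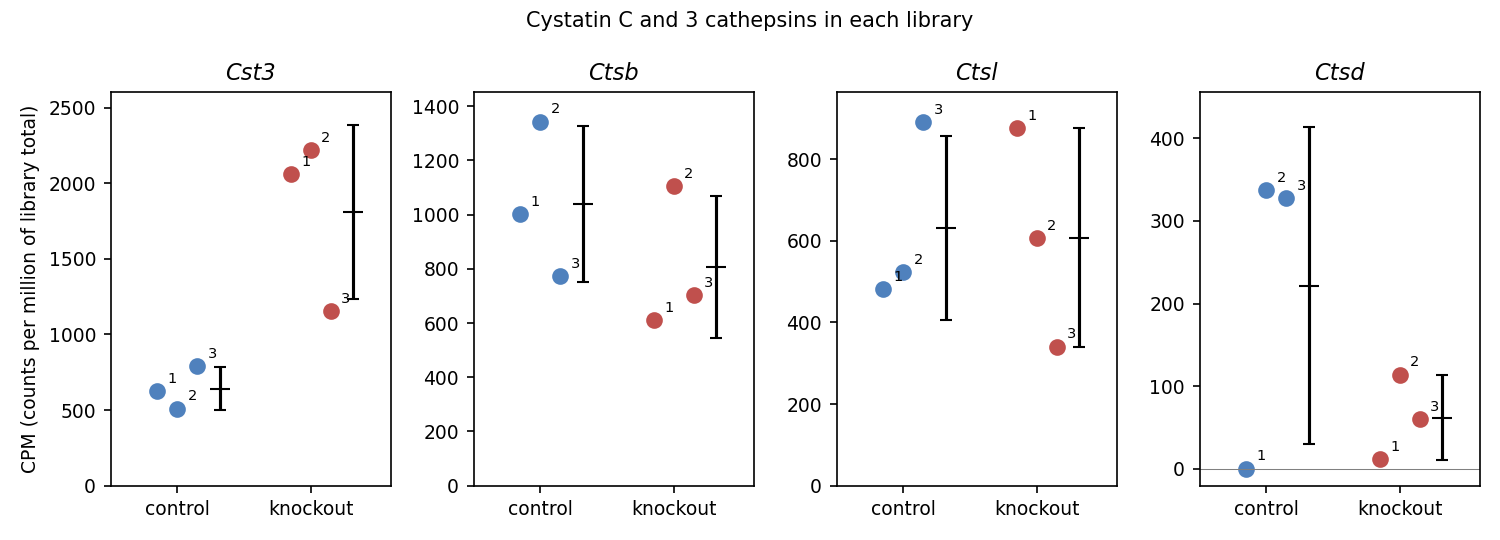
CPM of Cst3, Ctsb, Ctsl and Ctsd in each control (blue) and knockout (red) library, numbered by replicate, with the mean and SD of each group in black. The Cst3 libraries do not overlap between genotypes, and those of the 3 cathepsins do.

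Ctsb, the lysosomal cysteine protease cathepsin B (chromosome 14, 63122462 to 63145923, plus strand), had 8522, 23348 and 5684 counts in the knockouts, or 611, 1105 and 702 CPM. In the controls it had 11614, 10055 and 12672 counts, or 1000.4, 1343 and 774 CPM. The groups overlapped, with knockout 2 above 2 of the 3 controls, and all 6 values lay within a factor of 2.20. The means were 806 ± 263 and 1039 ± 287 CPM (SD, n = 3), and the log2 fold change was -0.25 ± 0.56 (SE). Fdft1, an enzyme of cholesterol synthesis on the opposite strand, overlaps Ctsb in the GENCODE M21 annotation, and where strand was not used, reads of the shared stretch cannot be told apart. Fdft1 was at 984 CPM in control 2, the library highest in Ctsb, and at 179 to 327 CPM elsewhere.

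Ctsl, cathepsin L (chromosome 13, 64361890 to 64370772, minus strand), had 12216, 12822 and 2760 counts in the knockouts, or 877, 607 and 341 CPM, and 5591, 3922 and 14591 counts across the controls, or 482, 524 and 891 CPM. Knockout 1 and control 3 were the high libraries and knockout 3 the lowest, so the groups overlapped throughout. The log2 fold change was 0.11 ± 0.73 (SE) and turned to -0.23 with DESeq2's size factors and to -0.42 without knockout 1 or -0.12 without control 2.

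The order of cathepsins B and L turned in the same libraries. Ctsb was above Ctsl in FPKM in knockouts 2 and 3 and controls 1 and 2, by factors of 1.37, 1.55, 1.57 and 1.93, and below it in knockout 1 and control 3, at 0.526 and 0.655 of its level. Together they made up 91.2%, 99.8% and 75.8% of the FPKM of the 5 cysteine cathepsins measured in knockouts 1, 2 and 3, against 98.3% and 71.3% in controls 1 and 3, and control 2 had no other. The remainder was Ctsh in knockout 3 and controls 1 and 3, and Ctsz and Ctss in knockouts 1 and 2.

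Measured against the proteases it can inhibit, cystatin C mRNA stood higher in each knockout library. Cst3 FPKM divided by the summed FPKM of Ctsb, Ctsh, Ctsl, Ctss and Ctsz was 6.31, 6.91 and 4.52 across the knockouts against 2.24, 1.49 and 1.72 across the controls, means of 5.91 ± 1.24 and 1.81 ± 0.38 (SD, n = 3). The denominators overlapped, at 410, 403 and 321 FPKM across the knockouts against 351, 430 and 578 FPKM across the controls, so the gap in the ratio follows the numerator that was chosen for its difference. The libraries of the genotypes also lay apart without Ctsb in the sum, at 8.40 to 16.4 against 2.40 to 5.59, and without Ctsl, at 6.43 to 15.7 against 2.26 to 3.63. These are ratios of mRNA and not of protein or of protease activity.

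**Figure D3:**
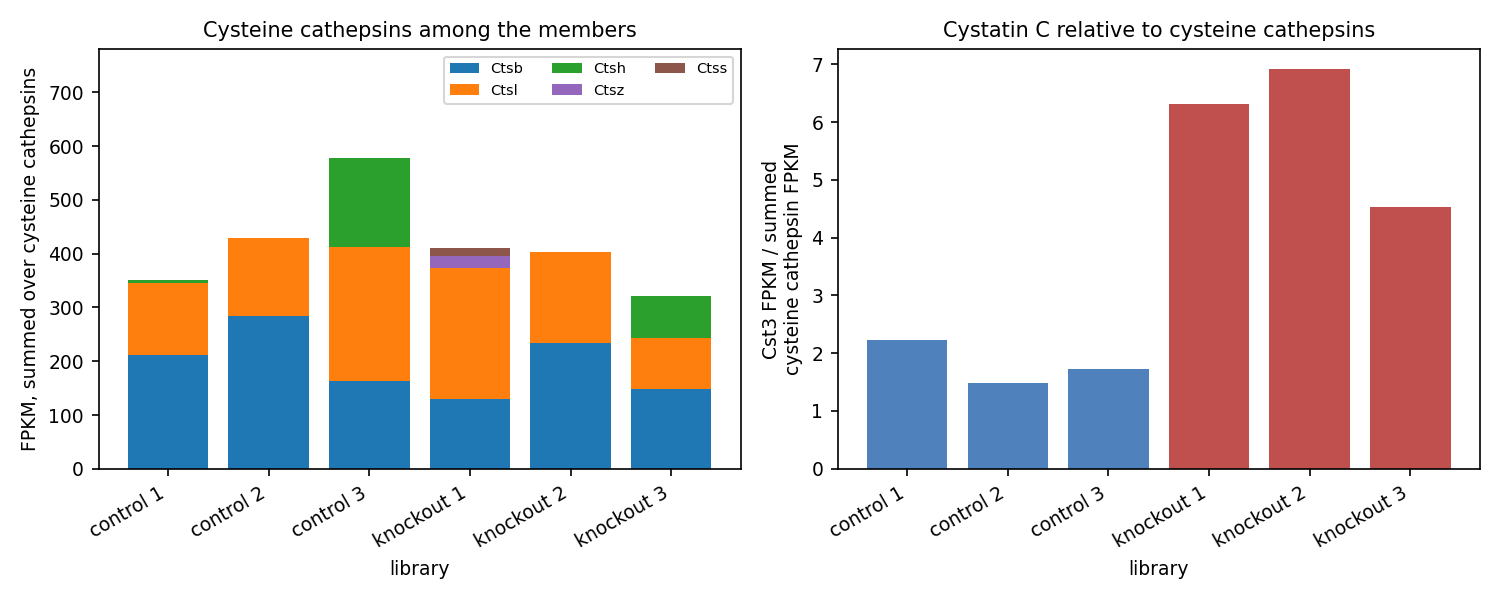
Left, FPKM of the 5 measured cysteine cathepsins stacked per library; right, Cst3 FPKM divided by that sum. The stacks overlap between genotypes (321 to 410 FPKM in the knockouts, 351 to 578 across the controls), while the ratio runs from 4.52 to 6.91 in the knockouts and from 1.49 to 2.24 in the controls.

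The aspartic protease cathepsin D, Ctsd (chromosome 7, 142375910 to 142387827, minus strand), was uneven in both genotypes. It had 155, 2408 and 485 counts in the knockouts, or 11.1, 114 and 59.9 CPM, and 0, 2528 and 5363 counts across the controls, or 0, 338 and 328 CPM. Controls 2 and 3 were the highest libraries and control 1 was at 0, where up to 3 counts, or 0.258 CPM, would be allowed. The log2 fold change of -1.69 ± 2.78 (SE) was smaller than its error, and Cst3, Ctsb and Ctsl were all present in control 1, where Ctsd had 0 counts.

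Cathepsin A, Ctsa (chromosome 2, 164832872 to 164841032, plus strand), a carboxypeptidase that also protects lysosomal galactosidase and neuraminidase, had 50, 56 and 572 counts across the knockouts against 0, 24 and 2529 across the controls. Control 3 held 65.9% of its CPM summed over the libraries. Its log2 fold change was -1.05 ± 3.24 (SE), and 4.21 without control 3. Pltp, a phospholipid transfer protein that overlaps Ctsa on the opposite strand, had 580 counts in control 3 and at most 1 elsewhere.

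Cathepsin H, Ctsh (chromosome 9, 90054267 to 90076095), an aminopeptidase, had 0, 0 and 1048 counts across the knockouts against 113, 0 and 4532 across the controls. Control 3 held 66.5% of its summed CPM and knockout 3 was next, at 277 and 129 CPM. Its log2 fold change was -1.19 ± 3.46 (SE), 2.82 without control 3 and -13.3 without knockout 3. The knockouts left in that last fit had 0 counts, so -13.3 gives a direction and not a size. The libraries high in Ctsh and Ctsa were also those with the most endothelial marker RNA, 6326 CPM in control 3 and 760 CPM in knockout 3 over 11 markers, against 35.9 to 472 CPM in the other 4, and pericyte markers summed to 314 and 538 CPM there against 0 to 217 CPM. The part of these cells in the cathepsin levels was not tested.

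**Figure D4:**
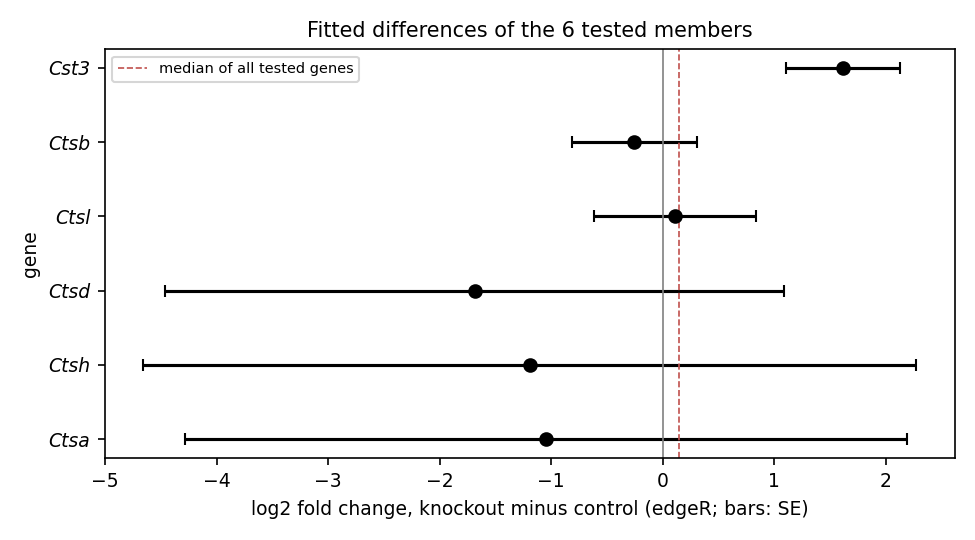
Fitted log2 fold change of the 6 tested members, knockout minus control, with the SE as bars and the median of all tested genes (0.14) as a dashed line. In this edgeR fit Cst3 lies at 1.62 with an SE of 0.51, and the bars of the 5 cathepsins cross 0.

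Cathepsins S and Z were measured in knockout 1 and nearly absent elsewhere. Ctss (chromosome 3, 95526786 to 95556405), a cysteine protease of antigen-presenting cells, had 284, 20 and 0 counts across the knockouts against 0 in every control. Ctsz (chromosome 2, 174427494 to 174439039), a carboxypeptidase, had 438, 1 and 0 counts across the knockouts against 0 in every control. A count of 0 allows up to 0.183 to 0.401 CPM in these libraries, for counting error only. Neither gene passed the filter on low counts. Knockout 3 was at 0 for both, as were all controls.

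Some genes of myeloid cells stood high in the same library. Of 5 macrophage markers in the table, knockout 1 reached 10 counts for 3, with 2906 counts of Lyz2, which encodes lysozyme, 1639 of Ptprc, the leukocyte antigen CD45, and 1864 of Cd68, a lysosomal glycoprotein, beside 1 of Mrc1 and 5 of Itgam. The list summed to 460 CPM there, against 0.0861 to 254 CPM elsewhere. Lyz2 and Ptprc had at most 1 count in any other library. Cd68 was not particular to knockout 1: it was at 134 CPM there, 254 CPM in knockout 2 and 134 CPM in control 3. Of 13 microglial markers, knockout 1 had 1181 counts of the adaptor Tyrobp but 0 of Cx3cr1, 1 of P2ry12 and 1 of Tmem119, and the list summed to 85.2 CPM there and to 0.134 to 9.28 CPM elsewhere. Knockout 2 had 188 counts of the complement gene C1qa, another of these markers. What part such cells had in the Ctss, Ctsz or Cst3 counts was not tested. Without knockout 1 the log2 fold change of Cst3 was 1.37 ± 0.68 (SE). That fit does not test the part of such cells, since knockout 2 also held Cd68 and C1qa.

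Markers of other retinal cells were low or uneven between libraries. Müller glia markers summed to 131, 228 and 511 CPM across the knockouts against 512, 1232 and 732 CPM across the controls, and knockout 3 and control 1 were nearly equal. Of 5 astrocyte markers and 8 rod and cone markers in the table, none reached 10 counts in the knockouts apart from 1 photoreceptor marker in knockout 3. Rod and cone markers summed to at most 12.96 CPM in any library and astrocyte markers to at most 0.517 CPM outside control 2, which held 69.9 CPM. Retinal pigment epithelium markers summed to at most 0.741 CPM outside control 3. In control 3 they summed to 152 CPM, all of it from Rlbp1, which is also on the Müller glia list.

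A wider list of cystatins, cathepsins, their transport factors and other protease inhibitors placed the members among related genes. Of 51 symbols 37 were in the table and 21 were tested; edgeR called 0 of 21 in either direction, 4 had an unadjusted p under 0.05, 13 log2 fold changes were positive and 8 negative, and their median was 1.04 against 0.14 over all 5727 genes. The 6 tested members had 2 positive and 4 negative values and a median of -0.65. DESeq2 called 6 of the 23 wider genes to which it gave an adjusted p, beside 11.9% of all genes.

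Cstb, which encodes cystatin B, the intracellular relative of cystatin C, was the other cystatin present in every library. It had 32686, 65001 and 13333 counts in the knockouts, or 2345, 3077 and 1646 CPM, and 25039, 7085 and 6639 counts across the controls, or 2157, 946 and 406 CPM. Control 1 reached the range of the knockouts, so the groups overlapped, and the log2 fold change was 1.04 ± 0.54 (SE). With 1 library left out it ran from 0.58, without control 3 (adjusted p = 0.68 in edgeR), to 2.09, without control 1 (adjusted p = 0.0435 in edgeR, in a fit that called 7 of 7654 genes, 0.0915%). Cst3 stood at 0.664, 0.546 and 0.530 of the Cstb level in FPKM across the knockouts against 0.219, 0.406 and 1.48 across the controls, so the balance of the 2 cystatins was even among the knockouts and uneven among the controls. Cst6, a cystatin of epithelia, had 2, 85 and 705 counts across the knockouts against 0, 4 and 4 across the controls, and Cst12 had 4 counts in knockout 3 and 0 elsewhere.

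Other cathepsins repeated the pattern of single libraries. Ctsk, a collagen-degrading protease of osteoclasts, had 1292 counts in knockout 1 and 0 in the other 5 libraries. Ctsc, which activates granule serine proteases, had 2700 counts in control 3 and 0 elsewhere. Lgmn encodes the asparaginyl endopeptidase legumain, which trims cathepsins to their mature form. It had 480, 557 and 1330 counts across the knockouts against 0, 0 and 9552 across the controls. Its log2 fold change of -1.34 ± 2.97 (SE) became 12.8 without control 3, a direction and not a size, as the controls left had 0 counts. Ctso, named after its values were seen, had 595, 58 and 305 counts across the knockouts against 0 in every control. The log2 fold change of Ctso was 11.6 ± 4.43 (SE), and 10.4% of all tested genes had every knockout above every control. With 0 counts in every control, 11.6 gives a direction and not a size. Allowing 3 counts over the controls together, Ctso was at least 262 times higher in the knockouts. Gnptg, a transport factor of the wider list also named after its values were seen, went the other way. It had 0, 0 and 1 counts across the knockouts against 831, 31 and 859 across the controls, a direction shared by 2.3% of tested genes.

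**Figure D5:**
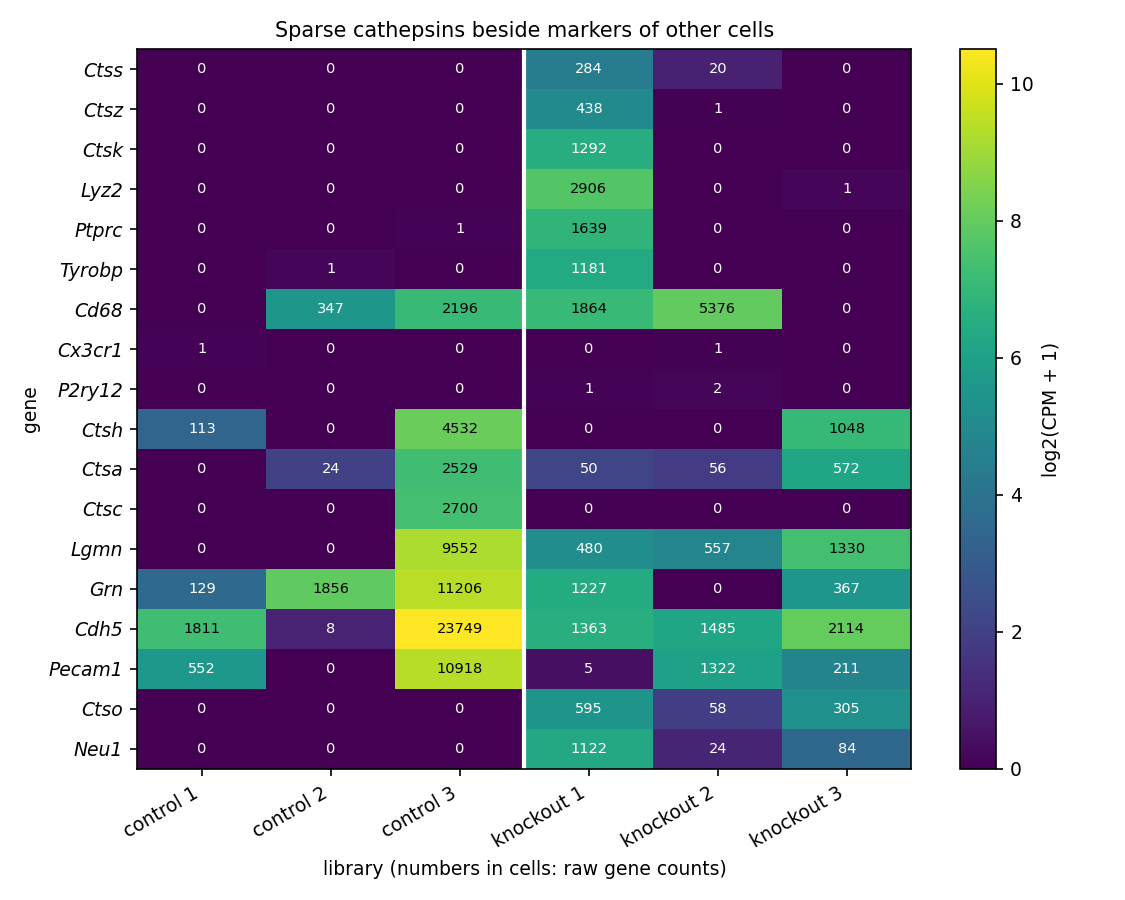
Sparse cathepsins and related genes beside myeloid (Lyz2, Ptprc, Tyrobp, Cd68, Cx3cr1, P2ry12) and endothelial (Cdh5, Pecam1) markers in each library, as colour on a log2(CPM + 1) scale with raw gene counts in each cell. Ctss, Ctsz and Ctsk share knockout 1 with Lyz2 and Ptprc, and Ctsh, Ctsa, Ctsc and Lgmn are highest in control 3, as are Cdh5 and Pecam1.

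Genes that carry or activate lysosomal proteases varied within both genotypes, and of 11 tested 6 log2 fold changes were positive and 5 negative. Lamp2 and Psap, named after their values were seen, had every knockout above every control, as did 10.4% of all tested genes. Lamp2 ran from 139 to 491 against 0 to 122 CPM, and Psap from 29.0 to 214 against 0 to 28.6 CPM. Sort1 had the same order, with 1 count in knockout 1, and did not pass the filter on low counts. Gnptg had the reverse order, shared by 2.3%. M6pr, a mannose 6-phosphate receptor that delivers cathepsins to lysosomes, had 910, 2916 and 1176 counts across the knockouts against 687, 4630 and 5846 across the controls (log2 fold change -1.38 ± 1.79, SE). Grn, the lysosomal cofactor progranulin, had 1227, 0 and 367 counts against 129, 1856 and 11206 (-2.56 ± 2.56). Lamp1, a lysosomal membrane protein, had 2574, 2775 and 18 counts against 393, 1869 and 1822, with no direction that held across scalings: 0.02 ± 2.63, and -0.37 with DESeq2's size factors.

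The partners of cathepsin A and the TFEB family were sparse. Neu1, the neuraminidase that cathepsin A protects, had 1122, 24 and 84 counts across the knockouts against 0 in every control. Of all tested genes, 10.4% had every knockout above every control, as Neu1 did. Glb1, the galactosidase of the same complex, had 4 counts in control 3 and 0 elsewhere. Among regulators of lysosomal genes, Tfeb had 15, 0 and 1 counts across the knockouts against 2, 0 and 70 across the controls, Tfe3 0, 105 and 512 against 4, 0 and 0, and Mitf 272, 934 and 2 against 0, 1 and 13.

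Of 7 inhibitors of other proteases, 4, 6 and 5 reached 10 counts across knockouts 1 to 3 against 1, 0 and 4 across controls 1 to 3. Over all genes, 6738, 7209 and 5790 reached 10 counts in the knockouts against 4258, 4463 and 4863 in the controls. The difference in detection is thus not particular to inhibitors. Serpine2, a serine protease inhibitor of glia and neurons, had 3373, 2237 and 3045 counts across the knockouts against 1, 0 and 1376 across the controls. Every knockout lay above every control in CPM, a pattern that 10.4% of all tested genes share. The log2 fold change of Serpine2 was 3.21 ± 2.94 (SE). Timp1, an inhibitor of matrix metalloproteases, had 0, 1474 and 2173 counts against 0, 0 and 725. Timp3, of the same family, had 1242, 1814 and 3885 counts against 0, 0 and 18218. Its log2 fold change of -0.73 ± 2.79 (SE) became 14.3 without control 3, a direction and not a size, as the controls left had 0 counts. Control 2 had 0 counts of all 7, while its Cst3 stood at 509 CPM.

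The genes whose profiles over the 6 libraries were most like that of Cst3 were sought among 1167 others with at least 10 counts in all 6 libraries, by the root mean square difference of log2(CPM + 1) after centring each gene on its mean. The closest were Dad1, a subunit of the oligosaccharyltransferase of the endoplasmic reticulum (0.29), Atp5mpl of ATP synthase (0.34), the ribosomal protein gene Rps6 (0.39), Uqcrb of respiratory complex III (0.40) and D8Ertd738e (0.40), where the median gene was at 1.32. Dad1, for example, was at 1244, 1068 and 487 CPM across the knockouts against 297, 333 and 592 CPM across the controls, so it shared the low value of knockout 3 and the high value of control 3. Cst3 was chosen for its difference between genotypes in these same values. Genes higher in the knockouts therefore lie closer to it by construction, and nothing is read from their functions. For Ctsb, the cathepsin of the highest mean level, the closest were the ribosomal protein gene Rpl19 (0.098), Grina (0.28) and the 14-3-3 gene Ywhae (0.29), against a median of 1.09. Rpl19 was at 379, 797 and 526 CPM across the knockouts against 671, 875 and 567 CPM across the controls.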

How the data were processed

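The submitters' processing notes list fastp, HISAT2, HTSeq, R 3.2.0, DESeq2 and mm10 and give none of them a role; no annotation or strand setting is named. Raw counts of each gene were deposited by the authors beside FPKM, with 0 columns of samples outside this series. The authors' FPKM carry 1 length per gene and no scaling beyond the library total, as a check against the counts showed.

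Genotypes were compared on the counts with edgeR 4.0.16 in R 4.3.3, using TMM scaling, filterByExpr and a robust quasi-likelihood test with p adjusted over all tested genes by the Benjamini-Hochberg method (threshold 0.05) and no term but genotype. The procedure was tested on simulated data. Alternatives were DESeq2 1.42.0 (adjusted p missing for 15331 genes), its size factors in edgeR, no filter, limma 3.58.1 on log2(FPKM + 1) and log2(FPKM + 0.1), a replicate block, and each library left out. The SE of an edgeR log2 fold change is its absolute value divided by the square root of the test's F statistic. It is derived from the test and, unlike the SE of DESeq2, not fitted. CPM are counts scaled to the library total, and detection means 10 counts. RefSeq GRCm38.p6 (mm10) gave coordinates and the promoters of 7 of the 9 symbols; GENCODE M21 gave overlapping genes.

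Members, lists and tests were chosen with earlier results of these data known. Named genes were the members, up to 3 genes of each group of the wider list by mean FPKM, and the nearest profiles. Ctso, Gnptg, Lamp2, Psap and Sort1 were named outside this rule, after their values were seen. Of marker lists not described in the report, amacrine markers summed to 167 to 799 CPM, bipolar markers to 0 to 180 CPM and red cell markers to at most 0.574 CPM per library.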

Additional observations from a re-analysis of the deposited data

How the results depend on the processing

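Cst3 was positive and uncalled in all 13 alternatives, with log2 fold changes of 1.29 to 1.87 and adjusted p of 0.40 to 1.00 (edgeR, DESeq2 and limma); with 1 library left out it ran from 1.36 to 1.87. Its SE was 2.06 in DESeq2 and 1.55 with no filter, both near or above the estimate, and 0.41 to 0.69 in every other alternative. Cst3 was chosen for its difference in these same libraries, with every knockout above every control. Its sign could therefore hardly turn in these alternatives, and nothing is read from its holding. No member was called in any alternative. Over all genes DESeq2 called 840, and edgeR called 0 to 7 with 1 library left out: 2 without knockout 1 and 7, 3 and 4 without controls 1, 2 and 3. The cause of these counts was not tested.

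Same-numbered libraries did not deviate together from their group means (Pearson r across genes -0.024, 0.026 and -0.011 for numbers 1, 2 and 3). Libraries of different numbers ran from -0.047 to 0.056. No pairing by number was seen, but 3 libraries per group cannot show whether same-numbered samples were prepared together. With the replicate block edgeR called 0 genes, and the log2 fold change was 1.58 for Cst3, but turned to 1.01 for Ctsa, 8.86 for Lgmn, -0.92 for Lamp1 and 9.998 for Timp3.

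Signs also turned elsewhere, and the cause was not tested. With DESeq2's size factors Ctsl was at -0.23 and Lamp1 at -0.37, and with DESeq2 at -0.25 and -0.38. On log2(FPKM + 1) Ctsl was at -0.10, Lgmn at 2.06, Lamp1 at -1.07 and Timp3 at 2.46, with the same values over all genes above 0. On log2(FPKM + 0.1) Ctsa was at 0.69, Ctsd at 0.62, Ctsl at -0.10, Lgmn at 4.22, Lamp1 at -1.33 and Timp3 at 4.63. With 1 library left out, Ctsa ran from -3.86 to 4.21, Ctsh from -13.3 to 2.82 and Ctsl from -0.42 to 0.42. Lgmn ran from -2.47 to 12.8, Lamp1 from -0.82 to 0.68 and Timp3 from -1.89 to 14.3. The values of -13.3, 12.8 and 14.3 come from fits with 0 counts in 1 group and give no size.

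The ratio of Cst3 to the cysteine cathepsins had means of 1.21 in the knockout and 0.37 in the control on CPM, 11.3 and 4.12 without Ctsb and 11.4 and 2.97 without Ctsl; removing a protease shrinks the denominator by construction. The biological coefficient of variation over all tested genes was 2.04, and the differences of Ctsa, Ctsd and Ctsh lay within their errors; what part depth had in this was not tested.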
